A study of Zea mays with 18 samples.

Results

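Cellulose synthase (CesA) genes were followed in maize (Zea mays) endosperm of the opaque2 (o2) mutant and of wild type, collected 14 days after pollination and hybridised to 2-colour cDNA arrays. The clones were those whose gene symbol or synonym begins with cesa. They number 6 clones of 5 genes, of 7466 clones with values, of which 489 carry a gene name from 370 genes. CesA-1 has 2 clones, called clone a (array row 6927) and clone b (row 7299) here, and CesA-2 (row 3253), CesA-7 (row 7277), cesa10 (row 7507) and cesa11 (row 3151) have 1 each. The platform annotation gives these genes only as LOC541802, LOC542564, LOC541805, LOC542685 and LOC542139, and the CesA names came through their gene identifiers. The gene table holds 13 genes with a cesa symbol or synonym, and the other 8 have no clone named for them here.

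Cellulose synthases are the catalytic subunits of rosette-shaped complexes in the plasma membrane, where they polymerise glucose from UDP-glucose into the glucan chains of cellulose. Different isoforms assemble in 1 complex, and plants use separate sets of isoforms for the thin primary wall of growing cells and for the thickened secondary wall. In maize, CesA-1, CesA-2 and CesA-7 belong to the primary-wall type, and cesa10 and cesa11 to the secondary-wall type. The o2 product is an endosperm bZIP factor that activates storage protein genes, and o2 mutants have soft, opaque kernels.

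The groups were o2 and wild-type endosperm of the inbred line B46, the same pair of genotypes in the inbred line M14, and o2 and wild-type pools made of 8 lines each, called mixed. Those lines were A619, B14A, B45, B46, B57, B66, B73 and M14, so that B46 and M14 are also part of the pools. The labels name no further allele or treatment. Each comparison had 3 sample pairs that the labels call independent, measured on 2 arrays per pair in opposite dye orientations. The 2 arrays of a dye swap were averaged into 1 replicate, which gives n = 3 per comparison and 9 replicates from 18 arrays.

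The deposited values are signed log ratios whose base is not stated, so differences are given in log units. A positive value means higher in o2 than in wild type. That direction was assumed and is not settled: it rests on the design text, which names wild type first. The correlation between both arrays of a dye swap does not back it. Over all clones these arrays ran against each other in each of the 9 replicates (r between -0.35 and -0.018). An o2 effect would give a positive r under the assumed direction, and a negative r if the values were Cy5 over Cy3. A dye effect on single clones would do the reverse, so this r cannot decide the direction. Among arrays with wild type on Cy5, the lowest r of any pair was -0.34, between the first replicates of M14 and of the mixed lines. It was picked as the most extreme pair, and the other pairs are not given. Were the values Cy5 over Cy3 instead, an o2 effect would be lost in the dye-swap mean, so the results are also given with values turned by the labelled dyes (called turned). The o2 clone itself was lower in o2 in 9 of 9 replicates, and in 6 of 9 when turned. Its values were -0.84, -0.60 and -0.56 log units in B46, -0.49, -0.17 and -0.45 in M14, and -0.073, -0.56 and -0.058 in the mixed lines. The average of -0.42 passed the test (limma, adjusted p = 0.0150), and the turned average of -0.084 did not (adjusted p = 0.833). Over all clones, 8.02% kept 1 sign in 9 of 9 replicates as read, and 0.268% when turned. In the average, 516 clones had an adjusted p under 0.05 as read, and 0 when turned (limma). If the values were Cy5 over Cy3, a dye effect would remain in the values as read.

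Ratios hold no expression level, so which CesA gene was more abundant, and whether defining endosperm genes were present, could not be read from them. A cDNA clone can also bind transcript of close relatives, which matters in a family as alike as this one. In bulk endosperm, fewer cells of a type and less RNA per cell cannot be told apart.

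None of the 6 CesA clones differed between o2 and wild type beyond the spread between replicates in B46, in M14, in the mixed lines or over all 9 replicates. The limma test with Benjamini-Hochberg adjustment over all 7466 clones called 0 of 6 clones in each of the 3 comparisons, in their average and in the 3 differences between comparisons at an adjusted p under 0.05. In these 7 contrasts 0 of 6 also had an unadjusted p under 0.05. Over all clones, the percentage called was 4.57% in B46, 0% in M14, 0% in the mixed lines, 6.91% in the average and 0% in each of the 3 differences. An unadjusted p under 0.05 was found for 18.4% of all clones in B46, 12.3% in M14, 9.28% in the mixed lines and 21.5% in the average, and for 9.82%, 5.28% and 5.04% in the differences B46 minus M14, B46 minus mixed and M14 minus mixed. With so few clones called in the background, a count of 0 among 6 clones is near it and does not set the family apart. The adjusted p-values of the CesA clones ranged between 0.475 and 0.996. In the turned values 0 of 6 were called as well, and an unadjusted p under 0.05 was found for 1 clone in M14, 1 in the mixed lines, 1 in B46 minus mixed, 2 in M14 minus mixed and 0 in the other 3 contrasts. The lowest turned adjusted p over the 7 contrasts was 0.253.

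The family divided into 3 clones with narrow and 3 with wide replicate values. CesA-1 clone b, CesA-7 and cesa10 had SDs within comparisons of 0.235, 0.312 and 0.221 log units, near or below the median of 0.327 over all clones. CesA-1 clone a, CesA-2 and cesa11 had SDs of 1.35, 1.46 and 1.30, wider than 95.6%, 96.9% and 94.9% of clones. The division does not follow the wall type, since the narrow clones hold 2 of the 4 primary-wall clones and 1 of the 2 secondary-wall clones.

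**Figure D1:**
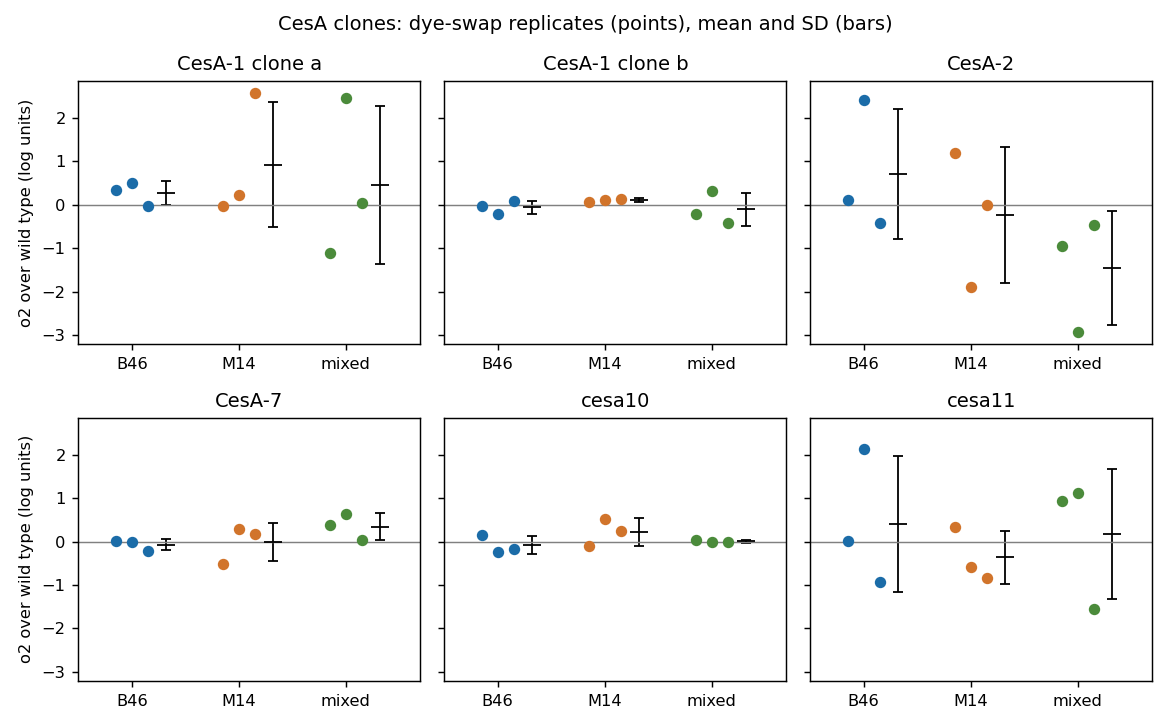
Difference o2 over wild type (y axis, log units) of each CesA clone in the 3 dye-swap replicates of B46, M14 and the mixed lines (points), with the mean and SD as black bars (n = 3). CesA-1 clone b, CesA-7 and cesa10 stay close to 0, while CesA-1 clone a, CesA-2 and cesa11 reach beyond 2 or below -1.5 log units in single replicates.

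CesA-1, a primary-wall subunit, was measured by both kinds of clone. Clone b gave -0.033, -0.21 and 0.082 log units in B46, 0.059, 0.12 and 0.14 in M14, and -0.21, 0.32 and -0.41 in the mixed lines. All 3 M14 replicates were above 0, and B46 and the mixed lines had values on both sides of it. Its means were -0.055 ± 0.15, 0.11 ± 0.041 and -0.10 ± 0.38 log units in B46, M14 and the mixed lines (SD, n = 3 each). Its average over the 9 replicates was -0.017 ± 0.080 log units (SE), with a 95% interval of -0.20 to 0.17 (limma, adjusted p = 0.933), and 0.0088 when turned. Read as base 2, that interval spans 0.869-fold to 1.12-fold, and read as natural logarithms 0.816-fold to 1.18-fold.

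CesA-1 clone a gave 0.35, 0.51 and -0.035 log units in B46, -0.036, 0.22 and 2.58 in M14, and -1.12, 2.46 and 0.030 in the mixed lines. Its high values are M14 replicate 3 and mixed replicate 2, its low value is mixed replicate 1, and the 3 comparisons overlap. The means were 0.28 ± 0.28, 0.92 ± 1.44 and 0.46 ± 1.83 log units in B46, M14 and the mixed lines (SD, n = 3 each). The average of 0.55 ± 0.41 log units (SE) was larger in size than that of 93.2% of clones, but its 95% interval ran from -0.39 to 1.496 (limma, adjusted p = 0.475). The turned average was 0.44, and the turned mixed mean of 1.32 had an unadjusted p of 0.0319 and an adjusted p of 0.713 (limma). The large replicate values each rest on 1 of the 2 arrays. In M14 replicate 3 the array with o2 on Cy5 read 0.61 and the array with wild type on Cy5 read 4.54, and in mixed replicate 2 they read 0.74 and 4.18. In mixed replicate 1 they read -3.13 and 0.89. Both clones carry the same gene name, and the SD within comparisons was 1.35 log units for clone a and 0.235 for clone b. Whether the averages of the 2 clones differ was not tested.

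CesA-2, another primary-wall subunit, gave 0.12, 2.42 and -0.41 log units in B46, 1.20, -1.90 and -0.0050 in M14, and -0.96, -2.94 and -0.47 in the mixed lines. The mixed lines were below 0 in all 3 replicates, and B46 and M14 spanned both signs. Its means were 0.71 ± 1.51, -0.24 ± 1.56 and -1.46 ± 1.31 log units in B46, M14 and the mixed lines (SD, n = 3 each). The mixed mean was the lowest of any CesA clone and comparison, and its 95% interval of -3.22 to 0.31 included 0 (limma, adjusted p = 0.595). The difference of B46 minus mixed, 2.16 log units, had the lowest unadjusted p of any CesA contrast (0.0805, adjusted p = 0.902, limma). Over all 9 replicates CesA-2 averaged -0.33 ± 0.44 log units (SE, interval -1.35 to 0.69, limma adjusted p = 0.722). The turned average was 0.18 log units (adjusted p = 0.880), on the other side of 0.

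CesA-7, the remaining primary-wall member, gave 0.018, -0.022 and -0.22 log units in B46, -0.51, 0.29 and 0.18 in M14, and 0.38, 0.63 and 0.030 in the mixed lines. All 3 mixed replicates were above 0, and the other comparisons were mixed in sign. Its means were -0.074 ± 0.13, -0.014 ± 0.43 and 0.35 ± 0.30 log units in B46, M14 and the mixed lines (SD, n = 3 each). The interval of the mixed mean, -0.060 to 0.75, included 0 (limma, adjusted p = 0.589). Over the 9 replicates it averaged 0.086 ± 0.10 log units (SE, interval -0.15 to 0.32, limma adjusted p = 0.679). In the turned values the M14 mean was 0.42 (limma, unadjusted p = 0.0499, adjusted p = 0.397) and the mixed mean -0.25, each of opposite sign to the value as read.

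Among the secondary-wall genes, cesa10 gave 0.15, -0.24 and -0.16 log units in B46, -0.11, 0.53 and 0.25 in M14, and 0.037, -0.018 and -0.0051 in the mixed lines. The mixed replicates lay close together at 0, and the highest value was M14 replicate 2. Its means were -0.084 ± 0.21, 0.22 ± 0.32 and 0.0044 ± 0.029 log units in B46, M14 and the mixed lines (SD, n = 3 each). Its average of 0.047 ± 0.076 log units (SE) had the narrowest interval of the family, -0.13 to 0.22 (limma, adjusted p = 0.773), and it was 0.027 when turned. On base 2 this spans 0.914-fold to 1.17-fold, and on natural logarithms 0.878-fold to 1.25-fold.

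The second secondary-wall gene, cesa11, gave 0.012, 2.14 and -0.93 log units in B46, 0.33, -0.58 and -0.85 in M14, and 0.94, 1.12 and -1.55 in the mixed lines. Each comparison held values on both sides of 0, with B46 replicate 2 highest and mixed replicate 3 lowest. Its means were 0.41 ± 1.57, -0.37 ± 0.61 and 0.17 ± 1.49 log units in B46, M14 and the mixed lines (SD, n = 3 each). The average was 0.071 ± 0.39 log units (SE), with an interval of -0.84 to 0.98 (limma, adjusted p = 0.944), and -0.30 when turned. Read as base 2 this covers 0.560-fold to 1.97-fold, and read as natural logarithms 0.433-fold to 2.66-fold. A change of moderate size in cesa11 was therefore not detectable at this spread. The intervals of the averages of CesA-1 clone a and CesA-2 were wider still, so the same limit applies to them.

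**Figure D2:**
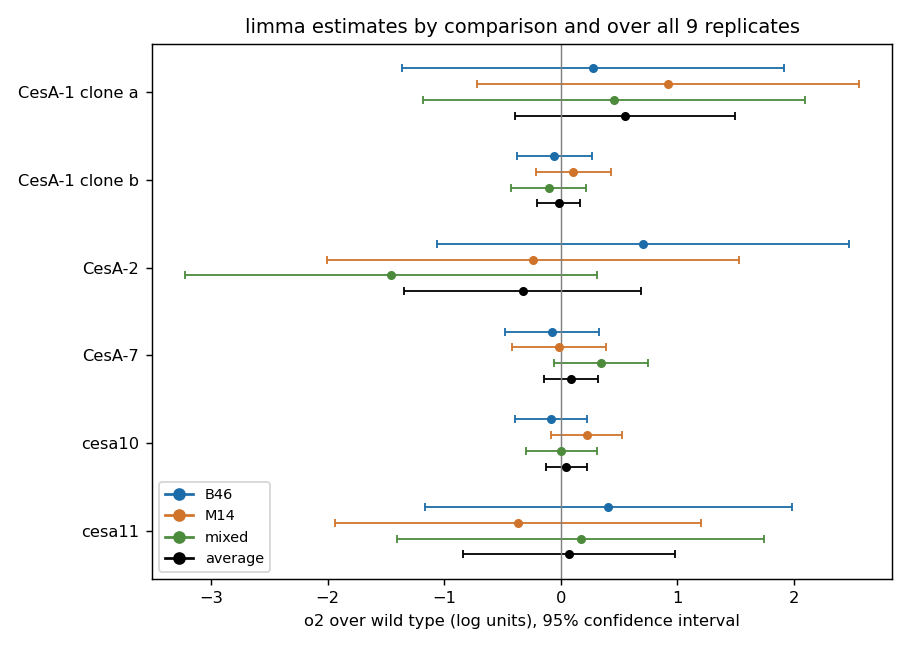
limma estimates of o2 over wild type (x axis, log units, with 95% confidence intervals) for each CesA clone in B46, M14, the mixed lines and their average over 9 replicates. Every interval includes 0, and the average's interval is 0.354 log units wide in cesa10 and 2.04 in CesA-2.

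The sign over the replicates of a comparison was counted for each clone. In B46, 0 of 6 CesA clones had 1 sign in all 3 replicates, where 42.3% of all clones did. In M14 it was 1 of 6 (CesA-1 clone b, above 0), beside 35.3% of all clones. In the mixed lines it was 2 of 6 (CesA-2 below 0 and CesA-7 above 0), beside 37.4%. Over all 9 replicates, 0 of 6 CesA clones kept 1 sign, beside 8.02% of clones. In the turned values the clones with 1 sign were others in part. They were 2 of 6 in B46 (CesA-1 clone a below 0 and clone b above 0), beside 41.1% of all clones, 1 of 6 in M14 (CesA-7 above 0), beside 44.5%, and 2 of 6 in the mixed lines (CesA-2 below 0 and CesA-1 clone a above 0), beside 28.5%. Over all 9 turned replicates it was 0 of 6, beside 0.268%.

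With 1 exception, the wide values came from single arrays of a pair. Of the 108 array values of the family, 12 lay beyond 2 log units in size (11.1%, beside 5.92% over all clones), and all 12 belonged to CesA-1 clone a (3), CesA-2 (6) and cesa11 (3). At least 1 such value occurred in 41.1% of all clones, and at least 4 in 10.2%. They ranged between -3.76 and 4.54 log units, 6 above and 6 below 0 (8 above and 4 below when turned), and 6 fell on arrays with o2 on Cy5 and 6 on arrays with wild type on Cy5. Mixed replicate 2 held 4 of the 12, which is 33.3% of its CesA values, against 8.77% of the values of all clones in it. In CesA-2 both arrays of that replicate were low, at -2.16 with o2 on Cy5 and -3.72 with wild type on Cy5, and this was the only dye swap in which both arrays of a CesA clone passed 2 log units. None of the 108 values was the one that each array gives to between 33 and 202 clones, whose origin is not stated.

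The 2 arrays of a dye swap gave 1 sign in 26 of 54 pairs for the CesA clones (48.1%), against 45.2% over all clones. When turned, these are the pairs of opposite sign, and 28 of 54 CesA pairs (51.9%) have 1 sign, against 54.8% over all clones. By clone it was 5 of 9 pairs for CesA-1 clone b and cesa10, and 4 of 9 for CesA-1 clone a, CesA-2, CesA-7 and cesa11. The median gap between the 2 arrays was 1.96 log units for cesa11, 1.76 for CesA-2 and 1.12 for CesA-1 clone a, against 0.480 over all clones. For CesA-7 it was 0.618, for CesA-1 clone b 0.426 and for cesa10 0.240. Only cesa10 and CesA-1 clone b had a gap below the median of all clones.

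**Figure D3:**
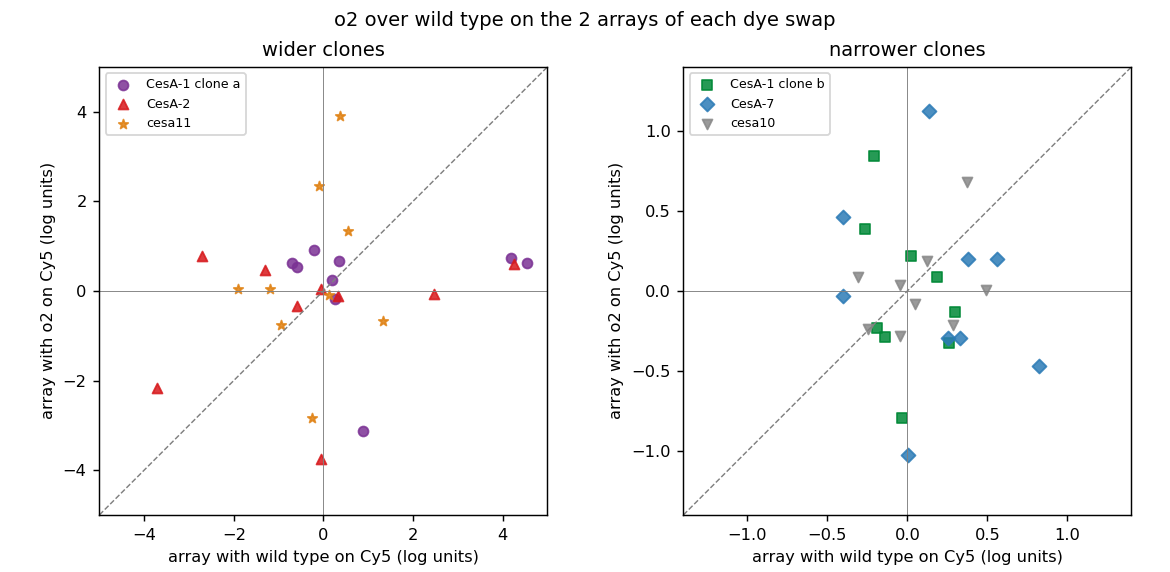
Difference o2 over wild type (log units) on the array with o2 on Cy5 (y axis) against its dye-swap partner with wild type on Cy5 (x axis), 9 pairs per CesA clone, with separate scales for the wider clones (left) and the narrower clones (right). The dashed line marks equal values, and 26 of the 54 points lie where both arrays have 1 sign as read (28 when turned).

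In no replicate did all 6 CesA clones lie on 1 side of 0. The median over the 6 clones was 0.11 log units in B46, 0.046 in M14, 0.088 in the mixed lines and 0.059 in the average, beside 0.0068, -0.0023, -0.013 and 0.0057 over all clones. The turned medians were 0.080, 0.26, -0.075 and 0.063. The number of clones above 0 was 5, 3 and 1 of 6 in the B46 replicates, 3, 4 and 4 in M14, and 3, 4 and 2 in the mixed lines. B46 replicates 1 and 3 therefore leaned to opposite sides, with family medians of 0.067 and -0.19 log units. In mixed replicate 2 both the lowest clone, CesA-2 at -2.94, and the highest, CesA-1 clone a at 2.46, were of the primary-wall type. The mixed median was -0.31 without that replicate.

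Correlation over the 9 replicates was computed for the 15 pairs of CesA clones. Pearson's r was above 0 in 10 of 15 pairs, with a median of 0.16 and quartiles of -0.33 and 0.27. Over all pairs of clones on the array, 50.2% were above 0, with a median of 0.00 and quartiles of -0.27 and 0.28. Once each comparison was centred on its own mean, 10 of 15 were again above 0 and the median was 0.096. With the values turned, 7 of 15 were above 0 and the median was -0.024. Without mixed replicate 2 the median was -0.0029. None of the 15 pairs passed the exact permutation test after adjustment, either by Pearson's r (1 pair with an unadjusted p under 0.05, lowest adjusted p = 0.391) or by Spearman's rho (1 pair, lowest adjusted p = 0.162).

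The pair with the largest r in size was CesA-2 and CesA-7, both of the primary-wall type, which ran in opposite directions (Pearson's r = -0.73, two-sided exact permutation p = 0.0260, adjusted p = 0.391, Spearman's rho = -0.82, exact permutation p = 0.0108, adjusted p = 0.162, n = 9). It was -0.79 without the 2 replicates farthest from the median of CesA-2, and -0.62 with each comparison centred. When turned, it was 0.37. The 2 clones of CesA-1 had the highest r, 0.62 (two-sided exact permutation p = 0.0792, adjusted p = 0.594, Spearman's rho = 0.45, exact permutation p = 0.230, n = 9). That relation rested on 2 replicates, since r was 0.18 without the 2 farthest from the median of clone a, and it was -0.32 when turned. The secondary-wall genes cesa10 and cesa11 gave r = -0.42 (exact permutation p = 0.267, adjusted p = 0.657, n = 9). Of the 15 pairs, 9 kept their sign without the 2 farthest replicates and 15 kept it with each comparison centred.

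**Figure D4:**
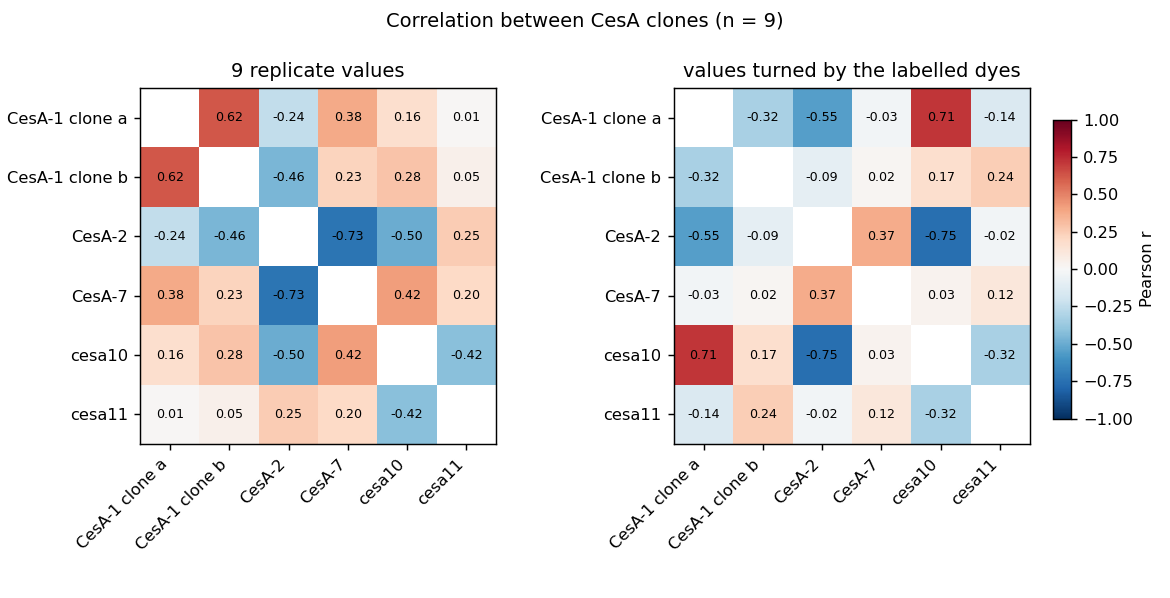
Pearson's r between CesA clones over the 9 dye-swap replicates, with the values as read (left) and turned by the labelled dyes (right); the colour scale runs between -1 and 1. As read, r spans -0.73 (CesA-2 with CesA-7) to 0.62 (the 2 CesA-1 clones), and both pairs change sign on the right.

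The 489 clones with a gene name, less the family, were searched for the 9 values most like each member's. Taking the highest of so many over 9 replicates favours a high r. The clone picked by Pearson's r is given as a description only. It was elfa3 for cesa11 (r = 0.89), sbip2a for CesA-2 (0.84), LOC606438 for CesA-1 clone a (0.76) and for CesA-7 (0.85), endo1 for CesA-1 clone b (0.82) and hon101 for cesa10 (0.95). All these clones share their arrays with the member. Between 1 and 28 clones of the array had a still higher r, and the turned r was -0.78 for CesA-7, -0.44 for cesa10, -0.16 for CesA-1 clone b, and between 0.34 and 0.63 for the others.

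Clones outside the family were listed by symbol or synonym for wall building and UDP-glucose supply. Whether each gene, such as glu1, glu2 or grp1, acts there was not checked. The list has 29 clones from 16 genes. It holds sucrose synthases (sh1, sus1), which make UDP-glucose from sucrose, tubulins, whose microtubules guide cellulose synthase complexes, the COBRA-like Bk2L3, the cell-wall invertase mn1, the expansin expa2, the reversibly glycosylated polypeptide RGP, beta-glucosidases (glu1, glu2) and grp1. In B46, 18 of 29 were above 0, in M14 9 and in the mixed lines 22, with list medians of 0.13, -0.072 and 0.074 log units. The turned counts above 0 were 14, 16 and 12, and the turned medians of -0.0097, 0.063 and -0.040 had the opposite sign in each comparison. Limma called 0 of 29 in each, beside 4.57% of all clones in B46 and 0% in M14 and the mixed lines. An unadjusted p under 0.05 was found for 6, 3 and 4 of 29, beside the 18.4%, 12.3% and 9.28% of all clones. In the average, 1 clone rose and 1 fell, beside 6.91% of all clones called. In the turned values 0 of 29 were called.

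The clone that rose was tua4 (row 9353), an alpha-tubulin. It gave 0.38, 0.50 and 0.28 log units in B46, 0.32, 0.34 and -0.11 in M14, and 0.42, 0.35 and 0.23 in the mixed lines, above 0 in 8 of 9 replicates. Its average was 0.30 ± 0.063 log units (SE, limma adjusted p = 0.0300), and 0.022 when turned. The other 3 tua4 clones were not called, with averages of 0.22, 0.21 and -0.29. The clone that fell was grp1 (row 433), at -0.41, -0.43 and -0.39 log units in B46, -0.38, -0.46 and -0.27 in M14, and -0.27, -0.24 and 0.19 in the mixed lines. It was below 0 in 8 of 9 replicates and averaged -0.30 ± 0.060 (SE, limma adjusted p = 0.0277), and -0.14 when turned. The other 3 grp1 clones averaged 0.11, -0.096 and -0.082 and were not called. Each of these calls ended in 11 of 19 alternative settings, with an adjusted p between 0.000227 and 0.919 for tua4 and between 0.00477 and 0.730 for grp1.

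Sucrose synthase clones did not pass the test: sh1 averaged 0.12 and 0.13 log units in its 2 clones and sus1 0.016. Neither did mn1 at -0.022, expa2 at -0.18, glu1 at -0.026, glu2 at 0.15, RGP at -0.33 and 0.039, or Bk2L3 at -0.21 and -0.080. Marker clones of the endosperm's tissues, of the embryo and of green maternal tissue were few. In the average, 1 of 3 clones of the basal transfer layer was called (betl2, -1.10 log units, limma adjusted p = 0.00552, turned -0.013), 1 of 9 of the starchy endosperm (the zein gene z1C1_12, -2.25, adjusted p = 0.00883, turned -0.084), and 0 of 1 of the aleurone, 0 of 2 of the embryo and 0 of 2 of green maternal tissue, beside 6.91% of all clones. The called clones do not stand for their lists. Above 0 in the average were 7 of 9 starchy endosperm clones (median 0.12 log units) and 1 of 3 basal transfer layer clones (median -0.022). In the aleurone, embryo and green maternal tissue lists it was 0 of 1, 0 of 2 and 0 of 2. The part of these marker clones in the CesA values was not tested.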

How the data were processed

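Per the labels' protocols, poly(A) RNA was isolated with the PolyATract System 1000 and array images were read with ImaGene 4.1. The authors' deposited table gives a signed log ratio for every row and array (log base, background correction and normalization: not given in the sources used here). Of its 16560 rows, 14932 have values, in neighbouring pairs with identical values that were collapsed to 7466 clones. Column medians lay between -0.22 and 0.11. The median of each array was subtracted, and values were multiplied by -1 so that o2 stands over wild type, and averaged over the dye swap. Precision is limited by the number of arrays.

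The test was limma (version 3.58.1, under R version 4.3.3; lmFit, then eBayes, 9 replicates fitted together, no covariates, prior degrees of freedom 1.51, residual 6), with Benjamini-Hochberg adjustment over all clones and calls under 0.05. The fit was tested on simulated data. Names are from the platform's annotation, which is old, updated by gene identifier through the gene table of assembly Zm-B73-REFERENCE-NAM-5.0. No coordinates or sequences are given. The named clones are all members, their most alike named clone, called clones of the wall list, and o2. Uncalled wall clones and the 2 called marker clones were named after their values were seen. Members and lists were chosen with earlier results of these data known. Alternatives covered direction, centring, scaling, prior, weights, dye orientation, block, shared values and each replicate left out.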

Additional observations from a re-analysis of the deposited data

How the results depend on the processing

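The number of CesA clones called was 0 of 6 under the 20 alternatives run for each comparison and the 19 run for the average and for each difference. Among 474 alternative values of single clones, 49 changed sign relative to the reported value and 17 moved by more than 1 SD. The lowest adjusted p among these 474 values, which leave out the differences, was 0.279 (limma). Among the differences, CesA-7 in the turned M14 minus mixed had an adjusted p of 0.253 (limma). Part of the 474 could not move. The prior, block and shared-value settings, the fit of a comparison alone and the fit of all 18 arrays leave an estimate unchanged. For a single comparison, leaving out a replicate of another comparison does so as well. Set against 474, the counts of 49 and 17 therefore make the values look steadier than they were. The average of CesA-1 clone a stayed above 0 in its alternatives (0.11 to 0.99), and that of cesa11 changed sign in 6 of them (-0.30 to 0.37).

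The family median in M14 (0.046) was 0.26 turned by the labelled dyes, 0.29 on arrays with wild type on Cy5 only and -0.10 on arrays with o2 on Cy5 only. Leaving out 1 replicate at a time gave -0.010 to 0.18 in M14 (highest without M14 replicate 1), -0.31 to 0.28 in the mixed lines (lowest without mixed replicate 2), -0.053 to 0.22 in B46 and -0.021 to 0.094 in the average. The median pairwise r (0.16) was -0.024 turned by the dyes and between -0.0029 (without mixed replicate 2) and 0.21 with 1 replicate left out. The cause of these shifts was not tested.

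With the replicate number as a replicate block, 0 of 6 clones were called. The family median of the average was again 0.059, which the block cannot change in this balanced design. Clones called in B46 fell to 185, against 341 without the block, and in the average to 385, against 516, and o2 lost its calls (limma adjusted p = 0.0903 in B46 and 0.0546 in the average). Over clones, deviations from each comparison's mean correlated between -0.034 and 0.10 for replicates with the same number. For unlike numbers r lay between -0.15 and 0.093. The number was not taken as a pairing, since these ranges overlap and not every replicate correlated best with its own number.

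The counts over all clones moved more. Turned by the labelled dyes, 5 clones were called in B46 and 0 in the average. With trend and robust options the counts were 159 and 249. On arrays with o2 on Cy5 only they were 97 and 205, and on arrays with wild type on Cy5 only 359 and 378. Weights per replicate gave 499 and 623, and all 18 arrays in the fit 720 and 959. B46 fitted alone gave 0. B46 counts were 1 without B46 replicate 1, 205 without B46 replicate 2, 7 without B46 replicate 3, and 233, 223 and 222 without mixed replicates 1, 2 and 3. The average's counts without 1 replicate lay between 298 and 499. All 18 arrays in the fit gave 277 calls in M14 and 205 in the mixed lines, and scaled arrays 40 and 58, in place of 0. The o2 call in B46 ended in 12 of 20 alternatives and that of the average in 5 of 19.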
